A study of Rattus norvegicus with 2 samples.

Results

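The genes described here carry cholesterol out of cells, release it from lysosomes, store it as esters and take up or remodel lipoproteins. They are 38 genes chosen by symbol from the 23636 gene symbols of the array, and all 38 had at least 1 transcript cluster that carries their symbol alone, 39 clusters in all. A transcript cluster is a group of probes for 1 gene or transcript. The established line C6 comes from a rat glioma, and C6 TAZ cells are its derivative in which the acyltransferase tafazzin, which remodels the mitochondrial lipid cardiolipin, was knocked out with the CRISPR-Cas9 system. Both were grown in the same serum-containing medium without treatment. For each genotype, wild type and TAZ knockout, RNA from 3 independent cultures was pooled and measured on 1 Affymetrix Clariom S rat array. Whether the C6 TAZ line is 1 clone is not stated in the sources at hand. With 1 array per condition there is no replicate check, no SD and no p-value for any difference, and the number of arrays limits the precision.

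The values are log2 signals, so that a log2 difference of 1, always C6 TAZ minus C6, is 2-fold. The deposited data give the names of the conditions in a pair of ways that exclude each other. A workbook names its columns C6 and C6 TAZ. The table of the series, whose columns are named by sample, has identical signals for 100% of the clusters once these columns are exchanged, and for 1.16% as labelled. The workbook's names, which the study also uses in its text, were used, and with those of the other table every difference below changes its sign. Tafazzin itself (Taz) went from 10.34 in C6 to 9.84 in C6 TAZ (−0.50). This does not settle the names, since where its probes lie relative to the deleted part was not known here. The median log2 signal was 6.39 in C6 and 6.40 in C6 TAZ. Clusters of olfactory and vomeronasal receptors, which glioma cells are not expected to use, differed between the arrays with an SD of 0.48 where their mean log2 signal was under 6 (1274 clusters), and clusters of cytosolic ribosomal proteins with an SD of 0.21 (124 clusters). These values describe the scatter among clusters and are no replicate error. Of the glioma and astrocyte lineage markers, 6 of 8 reached a log2 signal of 6 in at least 1 array. Gfap did so only in C6 TAZ (5.73 in C6 and 6.38 in C6 TAZ). The level was also reached by 6 of 8 markers of myelinating glia, 3 of 5 of neurons and 3 of 5 of fibroblasts. It was reached by 1 of 5 of endothelium, 1 of 4 of hepatocytes and 2 of 4 of adipocytes. Of 9 markers of microglia and macrophages, 8 were under 6 in both arrays. Reaching this level thus does not by itself mark a cell type.

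Cells cannot break down the sterol ring, so that surplus cholesterol is exported, esterified and stored in lipid droplets, or turned into oxysterols. Oxysterols activate the nuclear receptors LXRα and LXRβ, which bind DNA together with RXR and induce the genes of export, among them Abca1, Abcg1 and Apoe. In the brain, glial cells make lipoproteins with apolipoprotein E and clusterin, and neurons and glia take them up through receptors of the LDL receptor family. Lipoprotein cholesterol reaches the cytosol through the lysosome, where Lipa cleaves the esters and Npc2 and Npc1 hand the free sterol across the membrane.

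The promoters of Abca1, Lcat and Tmem97 are shown because Abca1 is the textbook LXR target of the group and because Lcat and Tmem97 are members past 2-fold in opposite directions. Each covers 250 bases before to 50 bases after the start of the gene, 5′ to 3′ on the minus strand of the RefSeq GRCr8 assembly, at chr5:72596424-72596723, chr19:50748015-50748314 and chr10:63945310-63945609. Capitals mark, on either strand, the LXR element GGTTANNNNCGGTCA, the E-box CACGTG and the GC box GGGCGG in Abca1, the CCAAT box in Lcat, and the CCAAT and GC boxes in Tmem97.
Abca1: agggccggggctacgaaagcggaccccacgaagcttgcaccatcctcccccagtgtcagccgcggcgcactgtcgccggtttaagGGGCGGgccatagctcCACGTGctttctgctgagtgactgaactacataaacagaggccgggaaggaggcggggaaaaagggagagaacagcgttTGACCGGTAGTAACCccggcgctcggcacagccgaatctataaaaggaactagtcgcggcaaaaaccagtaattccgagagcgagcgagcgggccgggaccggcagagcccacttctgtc
Lcat: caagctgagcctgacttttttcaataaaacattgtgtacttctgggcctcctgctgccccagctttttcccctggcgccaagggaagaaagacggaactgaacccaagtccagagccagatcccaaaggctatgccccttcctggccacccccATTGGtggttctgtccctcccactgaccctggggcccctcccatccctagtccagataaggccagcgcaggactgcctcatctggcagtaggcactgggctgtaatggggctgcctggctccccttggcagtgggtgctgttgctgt
Tmem97: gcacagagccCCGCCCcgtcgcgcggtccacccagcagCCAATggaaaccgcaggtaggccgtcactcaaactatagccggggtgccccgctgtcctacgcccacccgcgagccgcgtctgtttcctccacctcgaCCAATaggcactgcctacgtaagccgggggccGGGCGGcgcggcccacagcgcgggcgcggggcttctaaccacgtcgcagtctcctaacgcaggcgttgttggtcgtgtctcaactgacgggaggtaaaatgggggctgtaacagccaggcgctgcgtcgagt
The promoter of Abca1 holds the LXR element from base −70 to base −56 relative to the start. Its letters were written down after that promoter had been read, and it occurs in 3 of all 33469 promoters at hand (0.00896%). Tmem97, a gene induced by the sterol-sensing factor SREBP-2, has 2 CCAAT boxes and 2 GC boxes. Both motifs also stand in promoters of members that differ in either direction, such as Npc2 (0.41), Soat1 (0.56) and Plin2 (−0.32). A part of SREBP-2 in the difference of Tmem97 was not tested. RefSeq promoters were at hand for 32 of the 38 genes. The GC box occurred in 23 of these 32, against 33.1% of all promoters of this length, and the CCAAT box in 17, against 37.5%. The E-box occurred in 5 of 32, namely Abca1, Nceh1, Osbpl1a, Plin2 and Sorl1, against 6.42%. No member had the letters TCACNCCAC of a sterol regulatory element (1.12% of all promoters) or the AP-1 letters TGANTCA (7.33%). A match is not a bound site, and the lack of one says only that these letters are not in this window.

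At 2-fold or more, 2 of the 38 genes had a higher signal in C6 TAZ, clusterin (Clu) and Lcat, and 2 had a lower one, Tmem97 and Scarb1. Together they are 10.5% of the group. Over all 23188 clusters, 2.34% had a signal at least 2-fold higher and 2.10% one at least 2-fold lower, together 4.44%. Most of the others, 26 genes, lay within 1.5-fold. The median log2 difference was 0.22 over the 38 genes (quartiles −0.13 and 0.56) against 0.00 over all clusters (quartiles −0.28 and 0.29). A higher signal in C6 TAZ, by any amount, was seen for 26 of 38 genes (68.4%), against 49.3% of all clusters. At 1.5-fold, 9 genes were higher (23.7%, against 9.87% of all clusters) and 3 lower (against 9.05%). Nearest to the 2-fold line are Scarb1 (−1.08, 2.11-fold lower), just past it, and Lrp1 (0.80, 1.74-fold higher), within it. Scarb1 lies closer to that line than the SD of 0.21 among ribosomal protein clusters. At 1.5-fold the nearest members are Abca2 (1.56-fold), just inside, and Lrp2 and Soat1 (both 1.47-fold), just outside. The plot of both signals of each gene shows the groups by role.

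**Figure D1:**
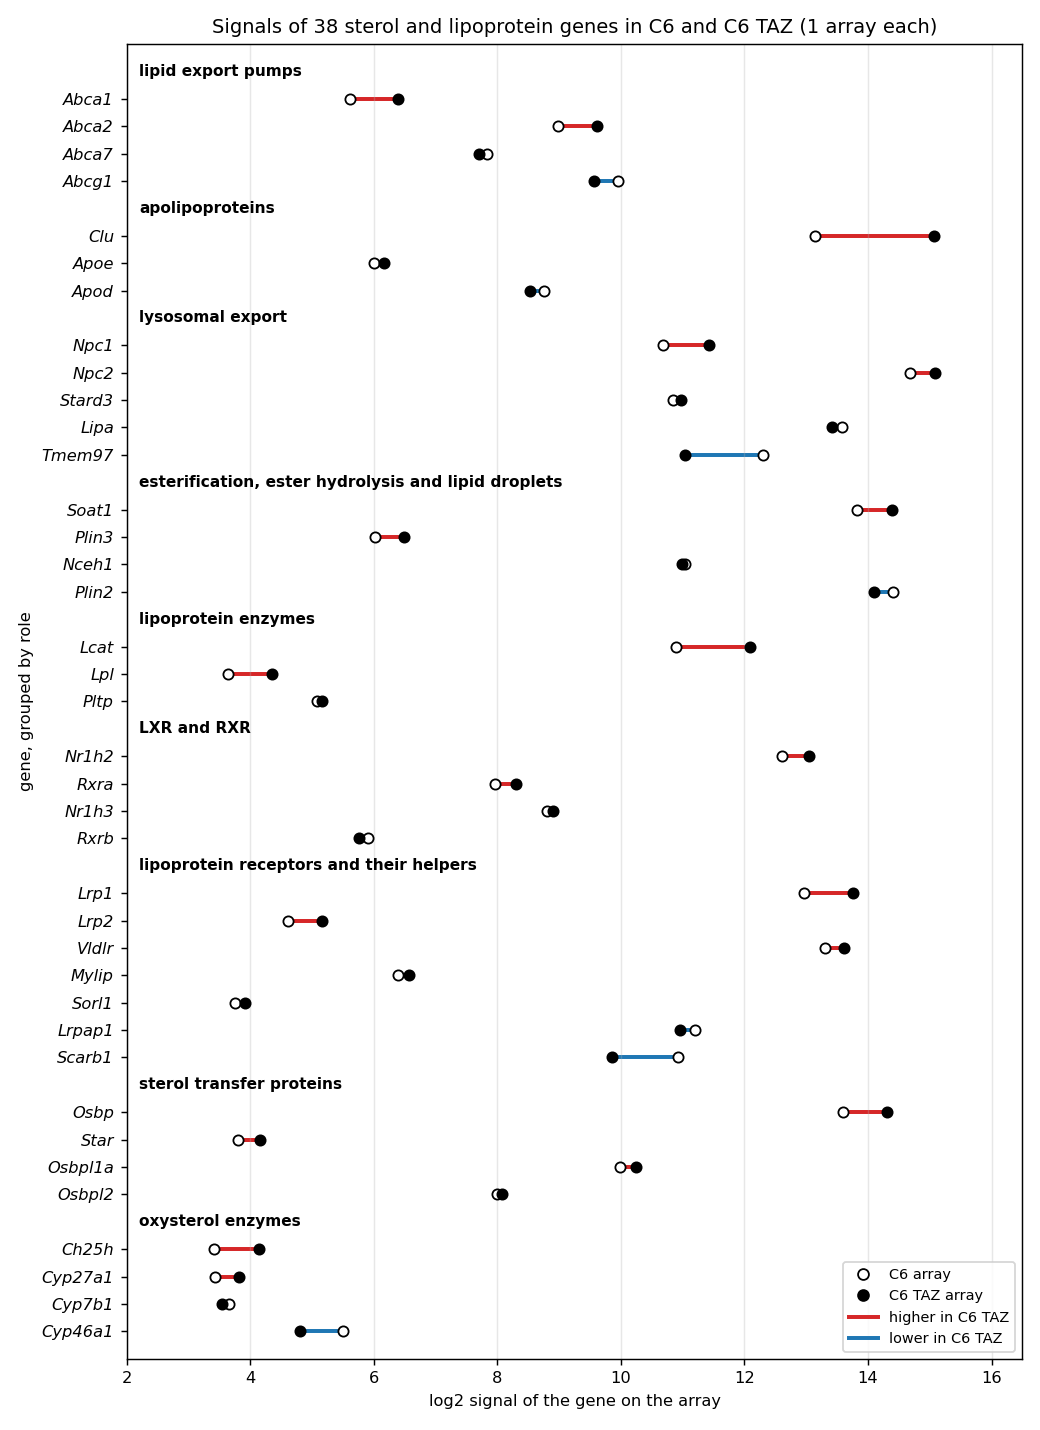
Log2 signal of each of the 38 genes (x axis) in the C6 array (open circles) and the C6 TAZ array (filled circles), 1 array each, grouped by role on the y axis and ordered by difference. A line joins both values of a gene, red where C6 TAZ is higher (26 genes) and blue where it is lower (12 genes); Clu has the longest line, from 13.15 to 15.07, and Tmem97 the longest in the other direction, from 12.30 to 11.04.

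The exporters of the plasma membrane and of other membranes did not move as 1 group. Abca1, which loads phospholipid and cholesterol onto lipid-poor apolipoproteins, went from a log2 signal of 5.62 in C6 to 6.40 in C6 TAZ (0.78). Of all clusters, 9.70% differed at least as far, and of those with a mean signal within 1 log2 unit of that of Abca1, 11.2%. Abcg1, which passes cholesterol to mature lipoprotein particles, was lower, with 9.96 in C6 and 9.56 in C6 TAZ (−0.40). For Abcg1, 35.5% of all clusters and 39.8% of those of like signal differed at least as far, so that its value is a common one. The mean log2 signal of Abca1 was 6.01, close to the level of 6 under which receptor clusters scatter with an SD of 0.48. The pair is usually induced together by LXR, and here the signs of the pair were opposite. Whether the activity of LXR differed was not tested. Abca2, a transporter of endosomes and lysosomes that is abundant in myelinating glia, was higher, from 8.98 to 9.62 (0.64). Abca7, a phospholipid transporter, was close to equal at 7.84 and 7.70. None of these 4 was past 2-fold. Of 18 further ABCA and ABCG transporters, 1 was lower and none higher past 2-fold (median −0.27), with Abcg2 at 0.86 and Abcg4, a sterol exporter of the brain, at 0.76.

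Clusterin was the member with the largest difference. Clu, which encodes a secreted chaperone carried on lipoproteins (also called apolipoprotein J), went from 13.15 in C6 to 15.07 in C6 TAZ. The difference of 1.92, or 3.78-fold, was reached or passed by 0.380% of all clusters, and by 0.615% of those with a mean signal within 1 log2 unit. The other apolipoproteins of the group stayed near equality. Apoe, the main apolipoprotein of glial particles, had 6.0 and 6.16, and Apod, a lipocalin of glia, had 8.75 and 8.53. Past 2-fold, 1 of 18 further apolipoprotein genes was lower and none higher, with a median of −0.16. Clusterin is also a marker of glia, and among 8 markers of myelinating glia 2 were higher and none lower past 2-fold, with Olig2 at −0.84. The log2 of the summed signals of these 8 markers was 15.56 in C6 and 16.37 in C6 TAZ. Without the 2 markers past 2-fold, the other 6 summed to 15.53 and 15.43. The part of these markers in the difference of Clu was not tested.

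Among the 3 enzymes that act on lipoproteins, Lcat was past 2-fold. Lcat, which esterifies cholesterol on the surface of particles and is made by astrocytes in the brain, went from 10.89 in C6 to 12.09 in C6 TAZ, 2.30-fold higher. Of all clusters, 2.25% differed at least as far, and of those with a mean signal within 1 log2 unit 2.83%. Lpl, the lipoprotein lipase, had low signals of 3.64 and 4.36 (0.72). At this level the receptor clusters of the nose scatter with the SD of 0.48 given above, and the difference of Lpl is given as a value only. Pltp, a phospholipid transfer protein, had 5.08 and 5.17. None of 12 further lipases and remodelling enzymes passed 2-fold, and Angptl4, an inhibitor of lipoprotein lipase, was the farthest at −0.78 among those that reached a log2 signal of 6.

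Genes of lysosomal export differed in both directions. Npc1, the membrane protein that exports cholesterol from the lysosome, had 10.68 in C6 and 11.43 in C6 TAZ (0.75), and its soluble partner Npc2 had 14.68 and 15.09 (0.41). Lipa, the acid lipase that releases the cholesterol in the first place, was close to equal, with 13.58 and 13.42. Stard3, a sterol tether of late endosomes, was so too, with 10.85 and 10.97. Tmem97, the sigma-2 receptor, which binds Npc1 and lowers its level in human cells, had 12.30 in C6 and 11.04 in C6 TAZ. The gene was 2.39-fold lower (−1.26), and 1.84% of all clusters and 2.39% of those of like signal, again within 1 log2 unit, differed at least as far. The signals of Npc1 and Tmem97 lay on opposite sides. The array reads RNA and not the level of Npc1 protein, and a link between both differences was not tested. Of 20 further genes of late endosomes and lysosomes, 3 were past 2-fold, all of them higher in C6 TAZ, with a median of 0.49 and 9 genes higher by 1.5-fold or more. Among them were Gla (1.49), a hydrolase of glycolipids, and the membrane protein Lamp1 (1.03). Cd68, a lysosomal protein used as a macrophage marker, was higher by 2.12. The log2 of the summed signals of the 9 markers of microglia and macrophages was 7.94 in C6 and 9.02 in C6 TAZ. Cd68 carried this difference, and the other 8 summed to 7.38 and 7.46. Of these 8, 3 had a lower signal in C6 TAZ. The part of these markers in the differences of the lysosomal genes was not tested.

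Storage genes stayed within 1.5-fold. Soat1, which esterifies cholesterol in the endoplasmic reticulum, had 13.83 in C6 and 14.39 in C6 TAZ (0.56), while Nceh1, which cleaves the esters, had 11.03 and 10.99. Plin2, the coat protein of lipid droplets in most cells, was lower, 14.41 against 14.09 (−0.32), and Plin3, a related coat protein, was higher, 6.02 against 6.49 (0.47). None of 24 further genes of lipid droplets and neutral lipids passed 2-fold (median 0.01). The seipin gene Bscl2 was at −0.67 and the triglyceride lipase gene Pnpla2 at 0.53.

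The receptors that sense oxysterols differed by less than 1.5-fold. Nr1h2, which encodes LXRβ, had 12.60 in C6 and 13.04 in C6 TAZ, and Nr1h3, which encodes LXRα, 8.81 and 8.90. Their partners Rxra and Rxrb had differences of 0.33 and −0.15. Known LXR targets in mouse or human among the members are Abca1, Abcg1, Apoe, Lpl, Mylip and Pltp. A higher signal in C6 TAZ was seen for 5 of these 6 (83.3%, against 49.3% of all clusters). The differences of Apoe (0.16), Mylip (0.17) and Pltp (0.09) were smaller than the SD of 0.21 among ribosomal protein clusters. None of the 6 was past 2-fold (4.44% of all clusters), with a median of 0.17 and a range from −0.40 to 0.78. This subset was put together after the values were seen. Of 13 further LXR target genes, 2 were past 2-fold, both lower in C6 TAZ, Fasn (−1.17) and Lpcat3 (−1.06), with a median of 0.01. Fasn is also a target of SREBP. Srebf1, an LXR target that encodes an SREBP, had low signals of 4.15 and 4.81.

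Among the receptors of lipoproteins, Scarb1 was lower and Lrp1 higher in C6 TAZ. Scarb1, the HDL receptor that lets cholesteryl esters pass into cells, went from 10.93 in C6 to 9.85 in C6 TAZ. The signal was 2.11-fold lower (−1.08), and 3.34% of all clusters and 4.62% of those of like signal differed at least as far. Lrp1, a large endocytic receptor for Apoe-bearing particles, had 12.96 and 13.76 (0.80). This was reached or passed by 9.06% of all clusters and by 6.97% of those of like signal. Vldlr, which binds Apoe and reelin, had 13.30 and 13.61. Lrpap1, the chaperone that keeps these receptors free of ligand in the endoplasmic reticulum, had 11.20 and 10.95, and Mylip, the ubiquitin ligase that degrades Vldlr and related receptors, 6.40 and 6.57. Lrp2 (4.61 and 5.17), which takes up clusterin in kidney, and the sorting receptor gene Sorl1 (3.76 and 3.92) had low signals in both arrays.

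None of the 4 cytosolic and mitochondrial carriers of sterols was past 2-fold. Osbp, which exchanges cholesterol for a phosphoinositide between the endoplasmic reticulum and the Golgi, had 13.60 in C6 and 14.30 in C6 TAZ (0.70). Its relative Osbpl1a, which acts on late endosomes, had 9.99 and 10.25. Osbpl2 was read from 2 clusters, with differences of opposite sign, 0.27 (11.23 and 11.50) and −0.10 (4.76 and 4.66), and a mean of 0.08. Star, which brings cholesterol into mitochondria of steroid-making cells, had low signals of 3.80 and 4.16. Of 25 further sterol transfer genes, 2 were past 2-fold, both lower in C6 TAZ (median 0.12). These were Stard4 (−2.34), a soluble sterol carrier controlled by SREBP, and Osbpl3 (−1.44), a lipid exchanger at membrane contacts.

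The 4 oxysterol enzymes had log2 signals under 6 in both arrays. Ch25h, an inducible cholesterol hydroxylase, had 3.42 in C6 and 4.14 in C6 TAZ (0.72). In the RefSeq gene table Ch25h lies next to Lipa on chromosome 1, with 0 protein-coding genes between, and Lipa was at −0.16. Cyp46a1, the hydroxylase by which neurons export cholesterol, had 5.51 and 4.80 (−0.71). Cyp27a1, a mitochondrial sterol hydroxylase, had 3.43 and 3.82, and Cyp7b1, which inactivates oxysterols, 3.65 and 3.54. The differences of Ch25h and Cyp46a1 were reached or passed by 12.1% and 12.5% of all clusters, and by 9.08% and 12.7% of those of like signal. Of 18 further genes for oxysterol and steroid enzymes, none passed 2-fold, and the median was 0.04.

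**Figure D2:**
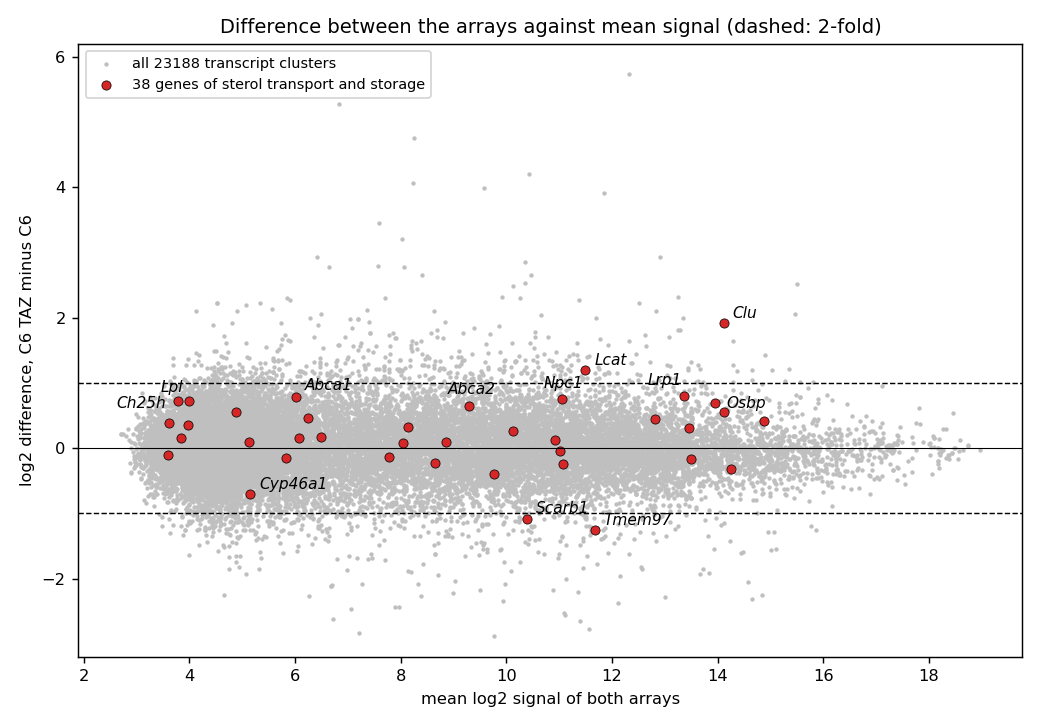
Log2 difference of C6 TAZ minus C6 (y axis) against the mean log2 signal of both arrays (x axis) for all 23188 transcript clusters (grey) and the 38 genes (red, averaged over clusters), with names for members past 1.5-fold and dashed lines at 2-fold. Clu (1.92) and Lcat (1.20) lie above the upper line and Tmem97 (−1.26) and Scarb1 (−1.08) below the lower one, all 4 at a mean log2 signal above 8.

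The signal level bears on how these differences can be read. Of the 38 genes, 10 had a mean log2 signal under 6, and none of these 10 was past 2-fold (3.22% of all clusters under 6). Of the 28 at 6 or above, Clu and Lcat were higher and Tmem97 and Scarb1 lower past 2-fold, against 3.07% and 2.45% of all clusters at that level. Median differences were 0.22 for these 28 and 0.26 for the other 10.

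The genes that make cholesterol showed another pattern, as the plot by gene list shows. Of 10 genes of the mevalonate pathway up to squalene epoxide, 9 had a signal in C6 TAZ lower by at least 2-fold, with a median log2 difference of −2.11. Of 11 enzymes after squalene, the count was 10, with a median of −1.86. Within the 38 genes the differences ran from −1.26 to 1.92, so that the lowest member, Tmem97, lay above the medians of both synthesis lists. Of 11 genes of SREBP control and sterol uptake, 4 were past 2-fold, all of them lower in C6 TAZ, with a median of −0.08. These lists were compared by counts and medians only, and the difference between them was not tested.

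**Figure D3:**
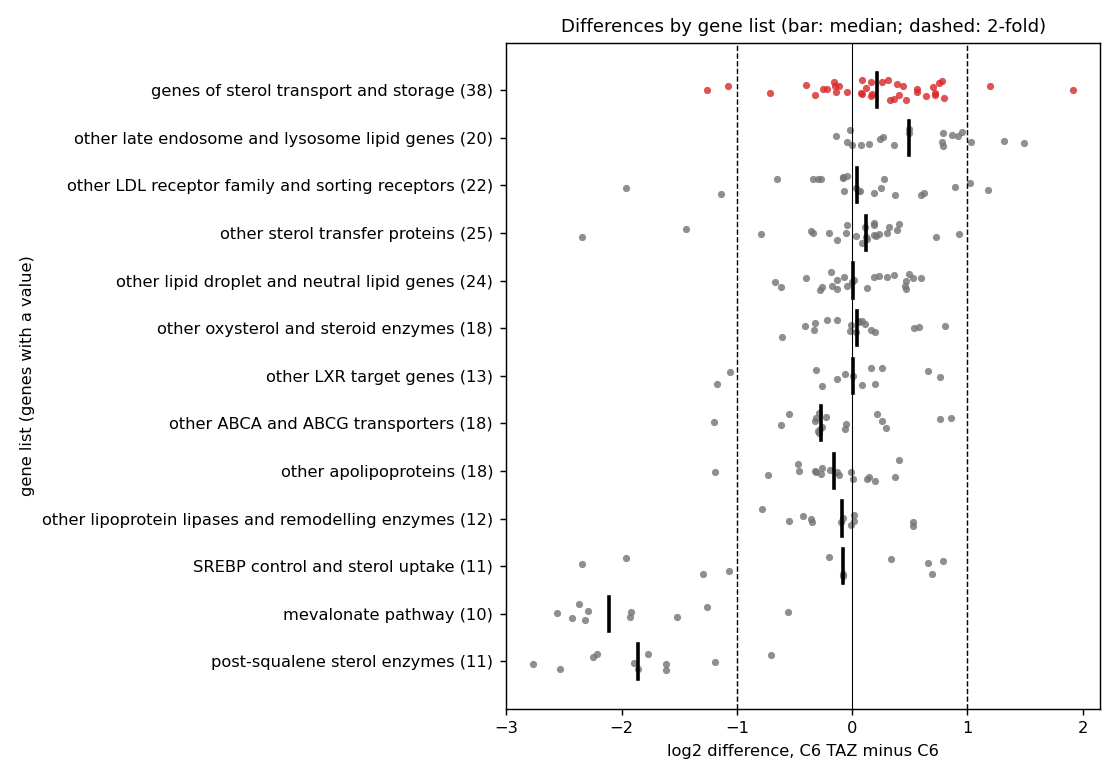
Log2 difference of C6 TAZ minus C6 (x axis) for the 38 genes (red points) and the genes of 12 other lists (grey points; number with a value in parentheses), with a bar at each median and dashed lines at 2-fold. The median of the 38 genes is 0.22, that of the late endosome and lysosome list 0.49, and those of the synthesis lists −2.11 and −1.86.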

How the data were processed

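Total RNA of wild-type C6 and of C6 TAZ cells was pooled from 3 cultures each and hybridised to 1 Affymetrix Clariom S rat array per condition. Values are log2 signals of transcript clusters as deposited by the authors, who used Affymetrix Expression Console per the labels. How probes were summarised and arrays normalised was not given in the sources used here. Clusters are annotated on the rn6 build per the file headers, whereas gene order and promoter sequences come from RefSeq tables of GRCr8, in which all 38 genes were found. The workbook also holds the authors' own fold changes, which were not used, and a sheet of selected peptidases, not used either.

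The C6 signal was subtracted from the C6 TAZ signal with no added scaling, and the difference was rounded to 2 decimals and counted at 2-fold (1.5-fold as an alternative) or more. Clusters that carry 1 symbol were used, or shared ones where no other exists, and clusters of a gene were averaged. The study's methods name an analysis of variance, which cannot be run with 1 array per condition, so no test was made. All 38 genes are named; from the 21 other lists the text names genes past 2-fold or with the largest differences at a log2 signal of at least 6 in 1 array, and others where they bear on a member, while single values of some list genes are not reported here. Members and lists were chosen with earlier results of these data known. The computation was tested on simulated arrays with exact shifts and no noise, which checks the arithmetic only (Python 3.11.15, pandas 2.3.3).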

Additional observations from a re-analysis of the deposited data

How the results depend on the processing

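Centring on the array medians, quantile normalization and centring on ribosomal protein clusters left the counts at 2 higher and 2 lower. Taking the brightest cluster per gene, or leaving out shared clusters or genes under a mean log2 signal of 6 or 8, could not change these counts. All 38 genes have clusters of their own, and only Osbpl2 has more than 1, each within 2-fold. The 4 genes past 2-fold all have a mean log2 signal above 8. Medians ran from 0.20 to 0.27 across all these settings. No member changed sign under the 3 scalings, which moved a member by at most 0.07. At 1.5-fold, 9 were higher and 3 lower, and the mean of the 38 differences was 0.22, like the median. With the names of the per-sample table, the median was −0.22, Clu was at −1.92, Lcat at −1.20, Tmem97 at 1.26 and Scarb1 at 1.08, since the columns are exchanged. The planned use of the authors' fold changes was not run. No paired analysis was possible because each condition has 1 array. Genes of low signal are limited by the scatter of the dim clusters (SD 0.48 among receptor clusters under 6).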

Other observations

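Reelin, a secreted ligand of the receptors Vldlr and Lrp8, and Lrp8 differed in opposite directions. Reln went from a log2 signal of 13.07 in C6 to 14.09 in C6 TAZ (1.02) and Lrp8 from 11.68 to 10.54 (−1.14), while Vldlr was at 0.31. Dab1, the adaptor of both receptors, had low signals of 4.38 and 4.45. Lrp4, another member of the receptor family, was higher by 1.18 (7.44 and 8.62). Over 22 further genes of the LDL receptor family and sorting receptors, 4 passed 2-fold, 2 in each direction, with a median of 0.04.

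Among 18 partners and relatives of LXR and RXR, Rarb, a retinoic acid receptor read from a cluster shared with another gene, had 10.43 in C6 and 8.84 in C6 TAZ (−1.59). Nr4a1, an orphan receptor that pairs with RXR, had 13.78 and 14.96 (1.18). Thra (0.87) and Ppara (0.80) were higher and within 2-fold, and the median of the 18 genes was 0.09.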
